A study of Mus musculus with 4 samples.

Results

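Sox2 and its distal control region were followed through 4 Micro-C libraries, which record how often pairs of 8 kb pieces of the genome (bins) are joined after micrococcal nuclease digestion and ligation of cross-linked chromatin. The cells were E14 mouse embryonic stem cells (ESCs), grown with LIF and inhibitors of MEK1/2 and GSK3, and cervical motor neurons (MNs) made from them through embryoid bodies patterned with all-trans-retinoic acid and the smoothened agonist SAG. Each cell state was measured as wild type (WT) and as PATZ1 KO, in which Cas9 and a single guide RNA had disrupted the gene of the zinc finger protein PATZ1 in E14 cells. PATZ1 KO lines were grown from single clones, and which clone gave the Micro-C libraries is not given in the sources used here. Each of the 4 groups was 1 library from a culture of many cells, with no replicate, so no difference below has a replicate check and no p-value is given.

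All pairs of bins on mouse chromosome 3 between 34400001 and 35200000 (GRCm38, 1-based) were taken. The deposited lists held 4104 of the 5050 possible pairs of this window in ESCs and 3386 in MNs, out of 23095428 and 21005697 listed pairs in all. In ESCs the window carried 47285 contacts for WT and 44355 for PATZ1 KO, in MNs 33504 and 31682, of 110991835 to 170946673 listed contacts per library. These totals count listed contacts only and are not the sequencing depth. The value columns carry no sample name, so column 1 was taken as WT and column 2 as PATZ1 KO throughout, and each direction given depends on that. The bin of the Patz1 5′ end, taken as a check of that reading, had 0.738 of the median contacts of its neighbours in WT ESCs against 0.539 for PATZ1 KO ESCs, with 0.705 and 0.483 in MNs. It was lower in the libraries read as PATZ1 KO in both cell states. That does not by itself show that the gene was disrupted or settle the reading of the columns. How many other bins differ as much was not counted.

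Sox2 encodes an HMG-box transcription factor that, with Pou5f1 and Nanog, maintains the pluripotent state, and that later marks neural progenitors before it is silenced in neurons. In ESCs its transcription depends on a cluster of enhancers downstream of the gene, known as the Sox2 control region, which lies in an otherwise gene-poor stretch. Physical proximity of the gene and this region is a widely used model of an enhancer acting over a distance.

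The RefSeq gene spans chr3:34649995-34652461 on the plus strand and lies inside the long non-coding transcript Sox2ot (chr3:34104270-34682619). Of the 18 annotated genes that overlap the window, Sox2 was the 1 protein-coding gene and 8 were lincRNAs. The gene fell in a single bin, chr3:34648001-34656000. The control region filled 2 bins, chr3:34752001-34760000 and chr3:34760001-34768000, at 104 kb and 112 kb from the Sox2 bin. No annotated gene overlapped either of them, and the lincRNA Gm38509 (chr3:34772075-34782346) starts in the next bin.

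The 250 bases before the Sox2 start (RefSeq, GRCm38.p6, chr3:34649745-34649994, plus strand) are shown because they lie at the gene end of the contact. They are 72% G or C and hold 27 CG dinucleotides.

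Sox2 promoter: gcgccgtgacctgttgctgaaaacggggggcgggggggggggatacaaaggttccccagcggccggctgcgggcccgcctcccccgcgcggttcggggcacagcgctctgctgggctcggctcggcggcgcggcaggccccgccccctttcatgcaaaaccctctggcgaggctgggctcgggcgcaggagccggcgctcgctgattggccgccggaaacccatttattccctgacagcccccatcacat

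CTCF, a zinc finger protein that stops loop extrusion by cohesin, and the G-rich binding protein MAZ are the boundary factors that PATZ1 was studied beside. Their core motifs were therefore searched on both strands, as the CTCF core motif and as GGGAGGG for the MAZ type. GGGAGGG was matched 6 times in the Sox2 bin, 4 times in the first control region bin and 3 times in the second. As many or more were held by 12.9%, 26.2% and 38.9% of chromosome 3 bins. The median bin held 2, and 81.1% of 19546 bins held at least 1. These bins were also rich in G or C, at 49%, 46.05% and 46.15%, with 98.2%, 92.6% and 93.0% of chromosome 3 bins at or below. No match fell in the promoter bases above. Of the matches in the control region bins 5 are shown, since these bins are the enhancer end of the contact, with the motif in capitals and each sequence written in the direction in which it reads GGGAGGG.

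chr3:34757922-34757952, plus strand: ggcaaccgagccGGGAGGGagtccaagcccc
chr3:34757997-34758027, minus strand: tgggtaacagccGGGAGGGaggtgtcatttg
chr3:34760018-34760048, minus strand: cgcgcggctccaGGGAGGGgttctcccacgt
chr3:34760411-34760441, minus strand: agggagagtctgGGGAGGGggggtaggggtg
chr3:34761591-34761621, plus strand: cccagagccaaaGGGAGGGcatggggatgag

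The CTCF core motif was matched in none of these 3 bins, nor in the bins on either side of Sox2, and 9.28% of chromosome 3 bins held a match. The match nearest downstream of the control region lay in the bin at 144 kb from Sox2, in which the insulation score described below had a minimum in WT ESCs. Of 11 matches in the window this was the 1 that fell in a bin with such a minimum in any library, and the other 6 of the 7 minimum bins held none. It is shown with the core in capitals.

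chr3:34799071-34799106, plus strand: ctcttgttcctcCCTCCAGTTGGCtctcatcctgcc

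A match is a description of the letters, and the lack of one says nothing of whether a factor was bound.

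In WT ESCs Sox2 and its control region were joined far more often than their distance alone would give, and in MNs they were not. The Sox2 bin had 37 contacts with the first control region bin and 28 with the second in WT ESCs. PATZ1 KO ESCs had 22 and 9, WT MNs 3 and 3, and PATZ1 KO MNs 1 and 1. Both ESC libraries thus lay above both MN libraries in each bin. Set against the mean of listed pairs at the same distance on chromosome 3, the 65 contacts of both bins in WT ESCs were 6.47 times the expected number (95% exact Poisson interval 4.996 to 8.25). The 31 contacts in PATZ1 KO ESCs were 3.43 times expected (2.33 to 4.88). The 6 contacts in WT MNs were 0.936 of expected (0.344 to 2.04), so that any excess above 2.04 times lies outside the interval. The 2 contacts in PATZ1 KO MNs, 1 per pair, the lowest count a listed pair can have, were 0.295 of expected (0.0357 to 1.06). These intervals cover counting error only, and sequenced ligation products are not all independent molecules.

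**Figure D1:**
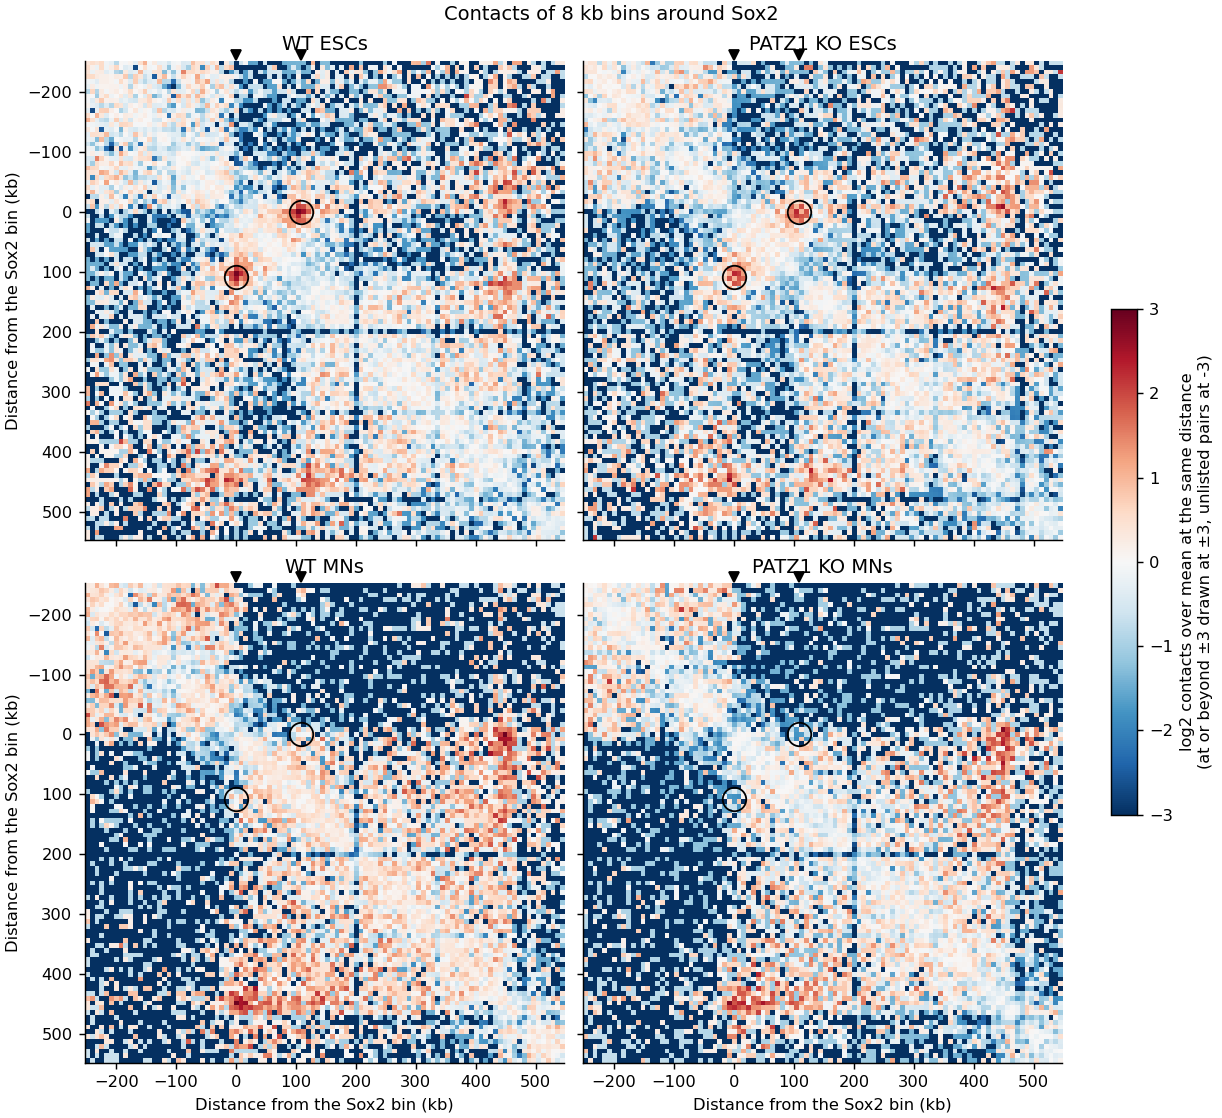
Contact maps of the window in the 4 libraries. Both axes give the distance from the Sox2 bin in kb, the colour gives log2 contacts over the mean at the same distance (pairs not listed are drawn at -3), arrowheads mark Sox2 and the control region, and circles mark the pairs of Sox2 with the control region bins. Together the circled pairs stand at 6.47 times expected in WT ESCs against 3.43 for PATZ1 KO ESCs, where the 112 kb pair alone is at 2.03, and at or below expected in both MN maps.

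The 104 kb pair of WT ESCs was the most frequent of all 17704 listed chromosome 3 pairs at that distance. At 112 kb, 1 of 17567 pairs had more contacts than the Sox2 pair, with 30 against 28. In PATZ1 KO ESCs 3 pairs lay above the Sox2 pair at 104 kb and 672 above it at 112 kb. In WT MNs 58.9% of the listed pairs had as many contacts as the Sox2 pair at 104 kb, or more, which places it in the middle of the distribution.

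The difference between cell states was larger than counting error in both genotypes. The log2 ratio of MNs over ESCs was -2.79 in WT (95% interval -4.29 to -1.59, from an exact Clopper-Pearson interval of the counts), a 6.92-fold lower contact over expected. In PATZ1 KO it was -3.54 (-6.65 to -1.57). Alternatives were tried for the expected value, the coverage of the bins, the depth within a cell state and the choice of bins. Over these the value nearest to 0 was -1.88 in WT and -2.34 in PATZ1 KO, each with 1 more bin on either side. The ESC libraries were not thinned to the depth of the MN libraries, so depth was not tested for these ratios. Corrected for the coverage of both bins the ratios were -3.49 in WT and -4.11 in PATZ1 KO. The MN contacts over expected were then 0.495 in WT and 0.203 in PATZ1 KO. With the deeper library thinned to the other, WT MNs stood at 0.467 from 3 contacts, and the PATZ1 KO MN library at 0.160 from 1. WT MNs was the shallower of these libraries on chromosome 3, with 6761395 contacts against 7482232. Its fall from 6 contacts to 3 is therefore not an effect of its own depth. These thinned values do not show the MN contact at equal depth, and no conclusion is drawn from them. The Sox2 bin had 1.11 times the median contacts of a chromosome 3 bin in WT ESCs and 1.31 times in WT MNs, and the first control region bin 1.03 and 1.38 times.

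PATZ1 KO ESCs had fewer contacts between Sox2 and the control region than WT ESCs. The log2 ratio was -0.91 (95% interval -1.58 to -0.28). It was -0.59 for the first control region bin alone and -1.49 for the second, so the drop was larger in the second. Corrected for the coverage of both bins it was -0.67, and the first control region bin had 1.03 times the median coverage in WT ESCs against 0.881 in PATZ1 KO ESCs. The 10 pairs of bins that surround the Sox2 and control region pairs had 165 contacts in WT ESCs against 144 in PATZ1 KO ESCs, 3.26 times expected (2.78 to 3.80) and 3.16 times (2.67 to 3.72), a log2 ratio of -0.05 (-0.38 to 0.29). With 1 more bin on either side of both partners the ratio of PATZ1 KO over WT was -0.24. The surrounding pairs were chosen after the values were seen, and not all of them were alike: the pair of Sox2 with the bin at 96 kb had 23 contacts in WT ESCs against 13 in PATZ1 KO ESCs. Sox2 also had fewer contacts with the stretch between it and the control region, 143 against 102, a log2 ratio of -0.32 (-0.70 to 0.06). Bins closer to Sox2 than 24 kb were left out. Of these, the bin at 8 kb had more contacts in PATZ1 KO ESCs, 66 against 51. The bin at 16 kb had fewer, 19 against 39. Whether the lower contact in PATZ1 KO ESCs exceeds the spread between cultures or clones was not tested, since each genotype had 1 library. In MNs the ratio was -1.67 (-5.01 to 0.82), and with 2 and 6 contacts a difference was not detectable at this depth.

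**Figure D2:**
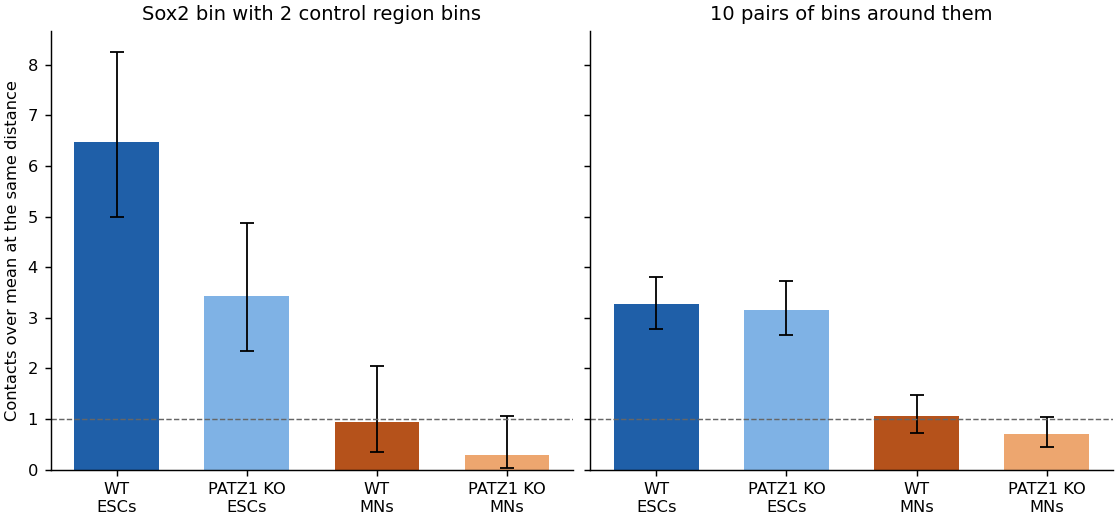
Contacts over the mean at the same distance (vertical axis) in the 4 libraries for the Sox2 bin with the 2 control region bins (left) and for the 10 surrounding pairs of bins (right). Error bars are 95% exact Poisson intervals of the count, and the dashed line marks the expected level. WT and PATZ1 KO ESCs stand at 6.47 and 3.43 on the left and at 3.26 and 3.16 on the right.

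Protein-coding promoters in general show how rare such a contact was. For each promoter of the autosomes the contacts with the bins at 104 kb and 112 kb were counted on either side, which gave 39785 promoter sides (genes that share a bin share the value). Sox2 with its control region ranked 1 of 39785 for WT ESCs and 49 for PATZ1 KO ESCs, while in MNs it ranked 14297 in WT and 33539 in PATZ1 KO. A contact of at least 2 times expected was found at 3.07% of promoter sides in WT ESCs and 2.65% in the PATZ1 KO ESC library, and in MNs at 3.95% and 2.52%, and Sox2 was among them in the ESC libraries alone.

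A contact at least 2 times lower in MNs than in ESCs, with 1 contact added to each count, was found at 16.5% of all promoter sides in WT and 16.3% in PATZ1 KO, so a difference of that size was common. Among the 837 sides with at least 2 times the expected contact over both ESC libraries the shares were 18.4% and 26.5%. The Sox2 ratio of -2.66 on this scale in WT was matched or passed by 0.93% of all sides and by 0.478% of the 837. For PATZ1 KO over WT in ESCs, 7.13% of all sides and 1.91% of the 837 were at least 2 times lower. Sox2, at -0.91 on this scale, did not reach 2-fold, and 8.71% of all sides and 3.58% of the 837 had a ratio as low. In MNs 9.07% of all sides were at least 2 times lower in PATZ1 KO. Sox2 was among them at -1.29, from 6 and 2 contacts, and 4.02% of all sides had a ratio as low. The 837 were picked on their ESC counts and include Sox2. That choice by itself lowers their ratios of MNs over ESCs, whose medians were -0.44 in WT and -0.52 in PATZ1 KO, against -0.06 and -0.10 over all sides, so their shares are a description only.

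**Figure D3:**
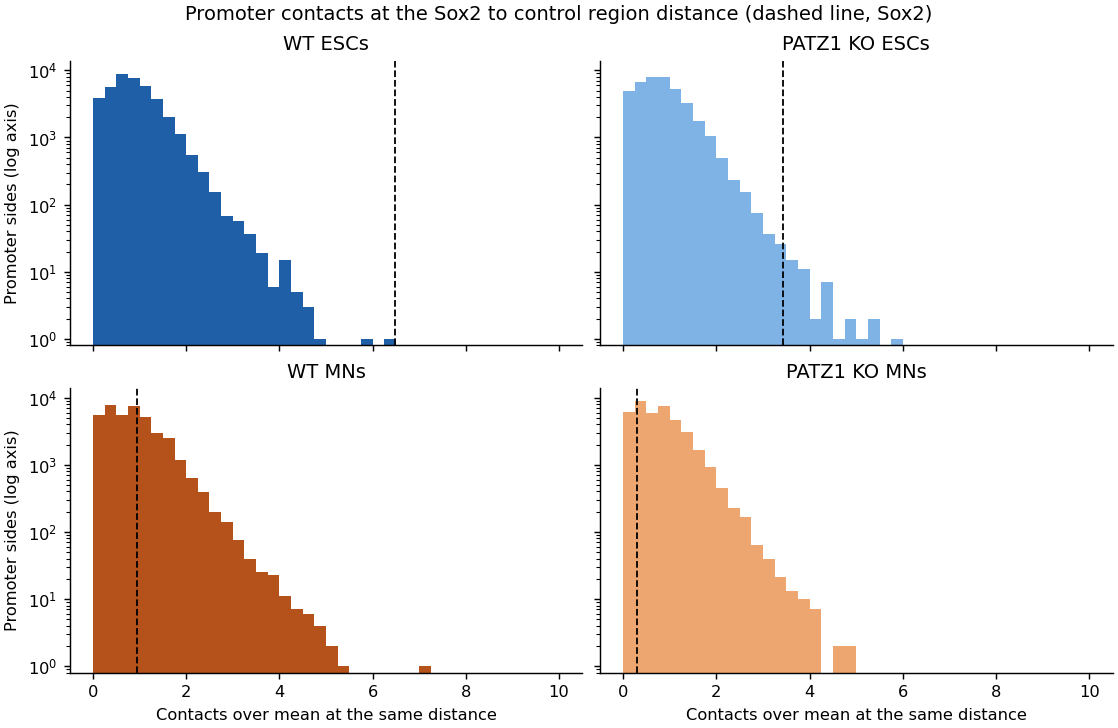
Contacts at the distance of Sox2 and its control region for 39785 promoter sides in each library. The horizontal axis gives contacts over the mean at the same distance, the vertical axis the number of promoter sides on a log scale, and the dashed line Sox2, which is the highest side in WT ESCs at 6.47 and lies within the bulk in WT MNs at 0.936.

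The 5 genes whose 4 values came nearest to those of Sox2 (Euclidean distance of the log2 values over the 4 libraries) were Tmem159, Abca14, Crym, Plpp3 and Chmp2a. The Tmem159 promoter had 34, 23, 5 and 1 contacts in WT ESCs, PATZ1 KO ESCs, WT MNs and PATZ1 KO MNs. Crym, which encodes the thyroid hormone binding protein mu-crystallin, shared its bin and its contacts with Abca14, at 26, 29, 7 and 2. That bin lies 104 kb from the Tmem159 bin and the sides counted face each other, so these 3 genes share 1 pair of bins and are not separate cases. Plpp3, a lipid phosphate phosphatase, had 29, 18, 6 and 2. The last of the 5, Chmp2a, a subunit of the ESCRT-III membrane scission complex, had 27, 21, 10 and 2. None of the 5 reached the contact over expected of Sox2 in WT ESCs, the highest being Tmem159 at 3.71.

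Other pluripotency factors were counted at the same distance. Of 27 promoter sides of 14 such genes, 1 had at least 2 times the expected contact in WT ESCs and none in the other 3 libraries. It was the upstream side of Lin28a, an RNA-binding protein that blocks let-7 maturation, with 20 contacts in WT ESCs, 6 in PATZ1 KO ESCs and 8 in each MN library. For Pou5f1, the OCT4 gene, the downstream side alone was measured, at 1, 3, 3 and 1 contacts. Nanog had 20, 17, 10 and 6 contacts downstream, in the same order of libraries, none of them 2 times expected. Of 32 sides of 16 other Sox genes, the number past 2 times expected was 3 in WT ESCs, 2 in WT MNs and 1 in each PATZ1 KO library. The highest in WT ESCs was the downstream side of Sox1, a neural member of the same subfamily, at 2.60 times expected with 36 contacts, against 14, 14 and 10 in the other libraries. Each list was near the background share in WT ESCs or above it by 1 or 2 sides.

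Seen from Sox2, the contact with the control region was a peak on a broader ridge. Among 95 partner bins at least 24 kb away in the window, the control region bins ranked 1 and 2 in WT ESCs, but 1 and 10 for PATZ1 KO ESCs. Of the partners with at least 10 contacts in WT ESCs, their neighbours at 96 kb, 120 kb and 88 kb came next, at 4.28, 3.58 and 2.82 times expected. Without that minimum the bin at 456 kb, with 7 contacts, stood at 3.07 times expected, above the bin at 88 kb. In PATZ1 KO ESCs the bin at 120 kb, which holds the start of Gm38509, had 16 contacts (3.77 times expected) against 17 in WT ESCs, so the profile there ran higher beyond the control region than in its second bin. In MNs the control region bins ranked 45 and 44 in WT and 72 and 70 in PATZ1 KO.

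**Figure D4:**
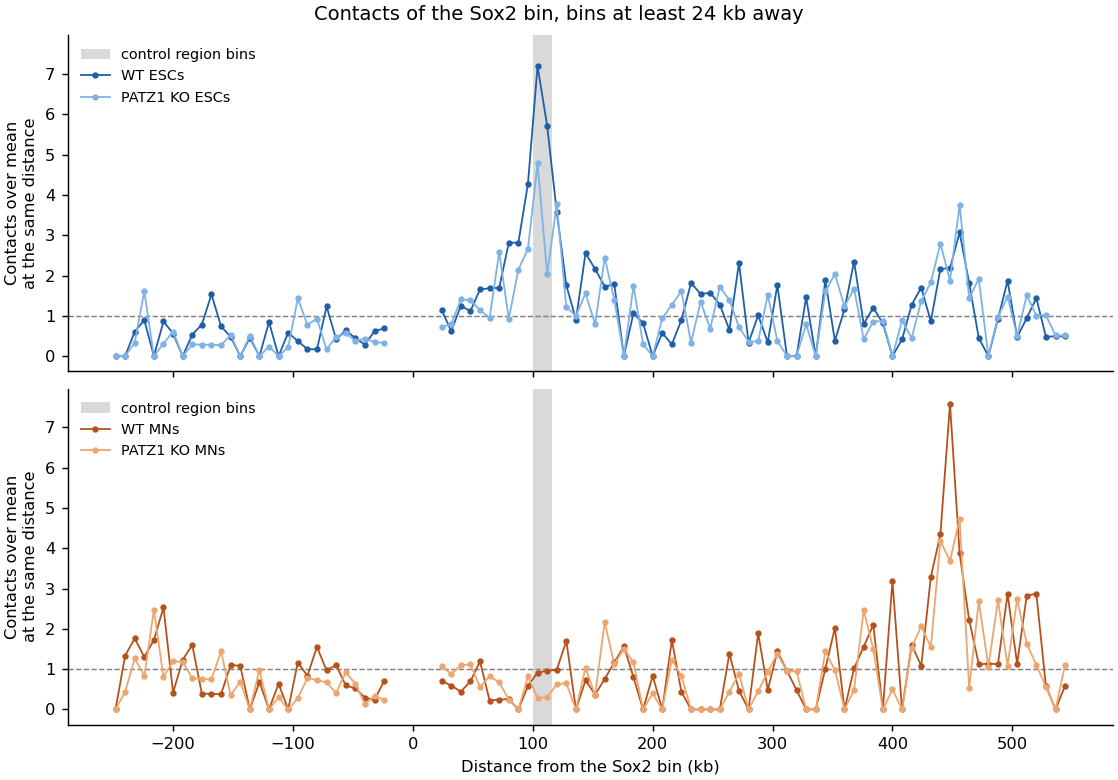
Contacts of the Sox2 bin over the mean at the same distance (vertical axis) against distance from Sox2 in kb (horizontal axis, bins at least 24 kb away), ESCs above and MNs below. The grey band marks the control region, the dashed line the expected level. ESCs peak in the grey band, and WT MNs peak at 448 kb with 7.58 times expected.

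Seen from the control region, Sox2 was the leading partner in WT ESCs with its 65 contacts. The bins on either side of the gene followed, at 38 contacts 8 kb upstream and 40 contacts 8 kb downstream. In PATZ1 KO ESCs the downstream neighbour led with 38 contacts (4.01 times expected against 3.80 in WT ESCs), ahead of the 31 of Sox2. In WT MNs the 5 leading partners of the control region, among bins with at least 10 contacts, all lay on its far side from Sox2. They stood 224 kb to 392 kb downstream of the first control region bin and had 10 or 11 contacts each. PATZ1 KO MNs differed: the partners ranked 1, 2 and 4 lay on the far side. Those ranked 3 and 5 lay 72 kb and 64 kb before the first control region bin, on the side of Sox2.

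Summed over all distances from 24 kb to 200 kb, the Sox2 promoter had an excess of contacts on its downstream side in ESCs and none in MNs. On the downstream side it had 278 contacts in WT ESCs, 2.09 times expected, which was at or above 99.6% of 19905 promoters. It had 188 in PATZ1 KO ESCs (1.58 times, 97.2%), 61 in WT MNs (0.773, 23.6%) with 77 in PATZ1 KO MNs (0.915, 50.6%). On the upstream side contacts were below expected in all 4 libraries, at 0.558, 0.438, 0.773 and 0.606, although over 24 kb to 400 kb WT MNs stood at 1.01. The log2 ratio of MNs over ESCs downstream was -1.44 in WT (95% interval -1.86 to -1.03) and -0.79 in PATZ1 KO (-1.19 to -0.40), while the median promoter stood at 0.12 and 0.02. Upstream it was 0.47 in each genotype, with intervals that included 0. PATZ1 KO over WT downstream was -0.40 in ESCs (-0.68 to -0.13) and 0.24 in MNs (-0.26 to 0.75). The downstream sums include the control region pairs given above.

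Of the other pluripotency factors, 6 had lower downstream contact in WT MNs than in WT ESCs and 8 higher, with a median log2 ratio of 0.02 beside 0.12 over all promoters, of which 38.4% were lower. Klf4, a reprogramming factor, had the lowest ratio of the 14 at -1.47, close to the -1.44 of Sox2. Of the other Sox genes 10 were lower and 6 higher, with a median of -0.04.

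In WT MNs the leading partner of Sox2 was a different one. The bin at chr3:35096001-35104000, 448 kb downstream and free of annotated genes, had 14 contacts with Sox2 in WT MNs with 7 in PATZ1 KO MNs, against 5 in WT ESCs with 4 in PATZ1 KO ESCs. In WT MNs this was 7.58 times expected (95% exact Poisson interval 4.15 to 12.7), and 1 of 7095 listed chromosome 3 pairs at that distance had more contacts. The log2 ratio of MNs over ESCs was 1.80 in WT (0.24 to 3.63) and 0.98 in PATZ1 KO (-0.998 to 3.20). The bin was named because it ranked highest in WT MNs, which favours a high value there. Over the 5 bins from 432 kb to 464 kb, chosen after the profile was seen, Sox2 had 23, 25, 39 and 28 contacts in WT ESCs, PATZ1 KO ESCs, WT MNs and PATZ1 KO MNs, or 2.02, 2.34, 4.27 and 2.93 times expected. The log2 ratio of MNs over ESCs for this stretch was 1.08 in WT (0.30 to 1.89) and 0.33 in PATZ1 KO (-0.50 to 1.17), so in PATZ1 KO no difference between the cell states was detectable at this depth. In all 4 libraries the count in this stretch was above expected, with lower interval bounds of 1.28 to 3.04. Those bounds do not allow for the choice of the stretch.

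The domains around the gene were arranged differently in the 2 cell states. Insulation was read as the contacts that cross a bin between the 200 kb on its left and the 200 kb on its right, as log2 over the chromosome 3 mean, so a lower score means fewer crossing contacts. At the Sox2 bin the score was -0.41 in ESCs of the WT and -0.43 in those of the PATZ1 KO, with 19.0% and 19.6% of chromosome 3 bins as low. It was -1.05 and -1.16 in MNs, with 5.51% and 4.44% of bins as low. Fewer contacts crossed Sox2 in MNs, by -0.64 in WT (95% interval -0.78 to -0.50) and -0.73 in PATZ1 KO (-0.88 to -0.59). With unlisted pairs left out in place of counted as 0 the differences were -0.19 and -0.29, and the lists held 67.0% of the window's pairs in MNs against 81.3% in ESCs. The differences of PATZ1 KO minus WT were -0.02 in ESCs (-0.13 to 0.09) and -0.11 in MNs (-0.29 to 0.06), within counting error. The lowest score near the gene stood 16 kb upstream of the Sox2 bin in both ESC libraries, in the bin of Mir1897, and within 8 kb of the Sox2 bin in both MN libraries.

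At the control region the scores were -0.09, -0.16, 0.18 and -0.07 in the same order. Crossing contacts were 0.27 higher in WT MNs than in WT ESCs (0.16 to 0.38) and 0.09 higher in PATZ1 KO (-0.02 to 0.21). Of chromosome 3 bins, 81.7% had a difference at or below that value in WT and 64.7% in PATZ1 KO, so rises of this size were common. The difference was wider over short distances: with squares of 96 kb the scores were -0.43 and -0.44 in ESCs and 0.44 and 0.12 in MNs. With squares of 400 kb all 4 scores were above 0, at 0.23 and 0.20 in ESCs and 0.40 and 0.22 in MNs, and the differences were 0.17 in WT and 0.02 in PATZ1 KO. Both ESC libraries had a local minimum just beyond the control region, at 144 kb from Sox2 in WT and 120 kb in PATZ1 KO, with scores of -0.23 and -0.24. In WT MNs the same bins scored 0.38 and 0.29, and no minimum stood there. A further minimum at 456 kb or 464 kb was found in all 4 libraries, 8 kb or 16 kb beyond the bin at 448 kb. PATZ1 KO MNs had fewer contacts across the control region than WT MNs, by -0.25 (-0.37 to -0.13). Contacts were also fewer elsewhere in the window. On the log2 scale PATZ1 KO MNs differed from WT MNs by -0.33 (-0.43 to -0.22) within the 200 kb upstream of Sox2, -0.34 (-0.44 to -0.23) within the 200 kb beyond the control region and -0.27 (-0.49 to -0.05) within the stretch between the gene and the control region.

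**Figure D5:**
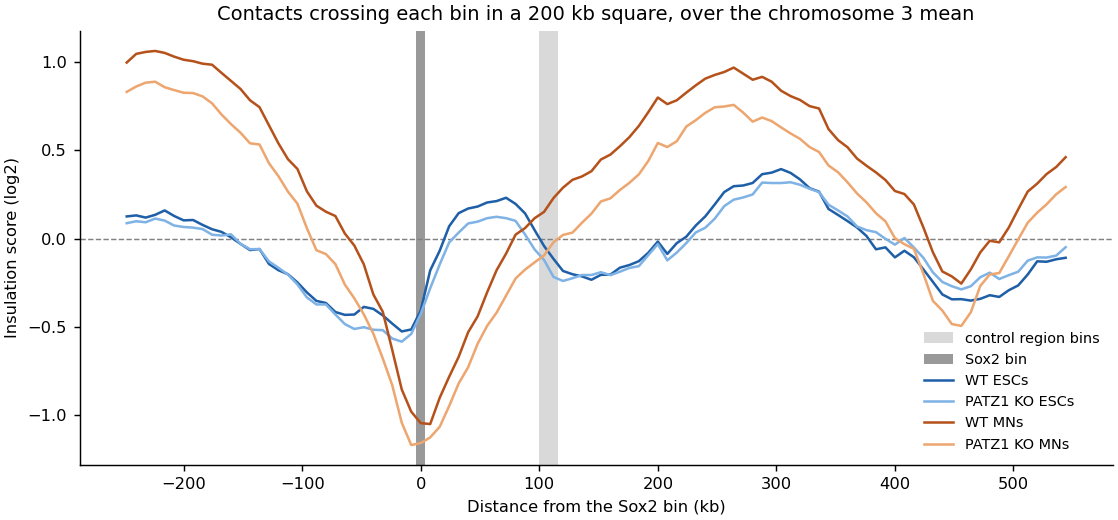
Insulation score (log2, vertical axis) of each 8 kb bin against distance from Sox2 in kb, with 200 kb squares, in the 4 libraries. Grey bands mark the Sox2 bin and the control region, and the dashed line the chromosome 3 mean. MNs have 1 deep minimum at Sox2 (-1.05 and -1.16), where ESCs have a shallower one, and ESCs have a further minimum past the control region.

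The blocks between these points describe the same layout in contacts. They hold many of the pairs of bins that fill the squares above, so they are not a separate check. The stretch between Sox2 and the control region (chr3:34656001-34752000) met the 200 kb beyond the control region (chr3:34768001-34968000) at 0.712 of expected in WT ESCs and 0.686 in the PATZ1 KO ESC library, and at 1.49 and 1.23 times in MNs. The control region met the same downstream stretch at 0.757 of expected in WT ESCs and at 1.39 and 1.27 times in MNs. The log2 ratio of MNs over ESCs between the first pair of blocks was 1.06 in WT (0.93 to 1.20) and 0.85 in PATZ1 KO (0.70 to 0.99). Contacts between these blocks were thus more frequent in MNs in both genotypes. Within the 200 kb upstream of the gene the ratio was 0.45 in WT and 0.18 in PATZ1 KO. Within the 200 kb beyond the control region it was 0.37 in WT and 0.05 in PATZ1 KO, so part of the rise was not particular to the blocks named. Contacts that passed both Sox2 and the control region were less frequent: the 200 kb upstream of the gene with the 200 kb beyond the control region stood at -1.13 in WT (-1.31 to -0.96) and -1.19 in PATZ1 KO (-1.37 to -1.01).

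Contacts of the control region across Sox2 were likewise less frequent in MNs. The 200 kb upstream of the gene (chr3:34448001-34648000) met the control region at 1.15 times expected in ESCs of the WT and 1.05 in those of the PATZ1 KO, and at 0.367 and 0.314 in MNs. The log2 ratio of MNs over ESCs was -1.64 in WT (-2.28 to -1.06) and -1.74 in PATZ1 KO (-2.42 to -1.12). These ratios too count unlisted pairs as 0 and were not recomputed without them. Sox2 itself met the stretch between it and the control region at 1.68 times expected in WT ESCs (143 contacts) with 1.35 in PATZ1 KO ESCs (102), against 0.584 in WT MNs (31) with 0.875 in PATZ1 KO MNs (50). Bins closer to Sox2 than 24 kb were left out here as well. No RNA or protein was measured in these libraries, so the cell states were not checked against markers, and the share of MNs in the differentiated cultures was not tested.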

How the data were processed

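Micro-C was performed with a Dovetail kit on WT and PATZ1 KO ESCs and MNs, 1 library per group. The authors had the reads mapped and contact matrices compared with HiCcompare, separately in ESCs and MNs. Each deposited list holds pairs of 8 kb bins with the contact count in both libraries. By the counts, not by the column names, pairs with 0 contacts in either library were not listed. The deposited adjusted interaction frequency is a signal scaled by the authors by 1 factor per distance. Further columns hold the authors' own ratios, differences, scores and p-values and were not used. The submitters' processing notes name mm10. Coordinates are 1-based, with genes from GENCODE and RefSeq on GRCm38.

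Expected contact was the mean count of listed pairs at the same distance on chromosome 3 in the same library. For summed distal contacts (24 kb to 200 kb) and blocks of bins (pairs at least 24 kb apart), it was taken over all pairs of bins with contacts, unlisted pairs counted as 0. The same held for the insulation score. Counts have 95% exact Poisson intervals and ratios exact Clopper-Pearson intervals, for counting error only. Promoter sides needed at least 20 expected contacts over the 4 libraries, and 1 contact was added before ratios. Genes named are Sox2, genes overlapping the window, genes at the 5 leading partner bins with at least 10 contacts, the 5 nearest promoters and members of both lists. The members and lists were chosen with earlier results of these data known. Some motif matches are not reported here. Functions were tested on simulated data. Python 3.11.15, numpy 2.4.6, scipy 1.17.1 and pandas 2.3.3 were used.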

Additional observations from a re-analysis of the deposited data

Results flagged for a closer look

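The downstream distal contact of the Sox2 promoter was lower in PATZ1 KO than in WT in ESCs and higher in MNs. On the log2 scale PATZ1 KO differed from WT by -0.40 in ESCs (188 against 278 contacts) and 0.24 in MNs (77 against 61 contacts). Both sums include the pairs of Sox2 with the control region (31 against 65 contacts in ESCs, 2 against 6 in MNs). They are therefore not separate from that contact. The median promoter stood at -0.07 in ESCs and -0.17 in MNs, and 11 of 14 pluripotency factors were lower in PATZ1 KO ESCs, with a median of -0.27, beside 61.7% of all promoters. With 1 library per group the difference between these ratios was not tested, and the interval in MNs included 0. Over 24 kb to 400 kb both MN libraries were nearly equal, at 0.969 times expected in WT and 0.986 in PATZ1 KO.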

How the results depend on the processing

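No paired analysis was possible because the labels give no replicate numbers and each group had 1 library. The contact of Sox2 with its control region over expected was 3.80 in WT ESCs with 1 more bin on either side, 2.03 in PATZ1 KO ESCs with the second control region bin alone, and PATZ1 KO over WT in ESCs was -0.24 (log2) with 1 more bin on either side. Under the other alternatives 38 values of this contact and 43 of its ratios stayed within the counting interval of the reported value. Some of these alternatives could hardly move the value. The adjusted signal is scaled by 1 factor per distance, which leaves contacts over expected nearly the same. Taking the expected value over all pairs leaves PATZ1 KO over WT nearly the same, since both share a list. In MNs the intervals are wide, so staying within them says little.

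Insulation depended on the square. At Sox2, squares of 96 kb gave -0.50 in WT ESCs, and in MNs -0.88 for WT and -0.96 for PATZ1 KO. Squares of 400 kb gave -0.14, -0.16, -0.59 and -0.76 (ESCs before MNs, WT before PATZ1 KO), and leaving out unlisted pairs gave -0.28, -0.30, -0.47 and -0.59. The difference of MNs minus ESCs in WT was -0.38 with 96 kb, -0.45 with 400 kb and -0.19 without unlisted pairs, and in PATZ1 KO -0.48 with 96 kb and -0.29 without unlisted pairs. At the control region 96 kb gave -0.43, -0.44, 0.44 and 0.12, and 400 kb gave 0.23, 0.20, 0.40 and 0.22, so both ESC scores changed sign with 400 kb and the PATZ1 KO MN score with each. There the difference of MNs minus ESCs was 0.87 in WT and 0.55 in PATZ1 KO with 96 kb, and 0.39 in WT without unlisted pairs. Upstream distal contact in WT MNs was 1.01 times expected over 24 kb to 400 kb. The cause of these changes was not tested. The limits are 1 library per group, 2 to 6 contacts between Sox2 and the control region in MNs, pairs left out by the list, and 8 kb bins, which cannot part the promoter from the rest of the gene.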
